A study of Arabidopsis thaliana with 12 samples.

Results

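PDF1.2 and PDF1.2b are 2 plant defensin genes of Arabidopsis thaliana that serve as markers of joint jasmonate and ethylene signalling, and their log2 intensity was followed across 4 genotypes. Both were chosen by name, as 2 of the 13355 genes that could be named on the array, each with 1 probe set of its own. PDF1.2 (AT5G44420, probe set 249052_at) lies on chromosome 5 and PDF1.2b (AT2G26020, probe set 257365_x_at) on chromosome 2. Whole seedlings of 15 days were profiled on 12 Affymetrix ATH1 arrays, with 3 biological replicates of each genotype. The mutants, all in the Col-0 background, were the triple nia1nia2noa1-2, the double nia1nia2 with lesions in nitrate reductases 1 and 2, and noa1-2 with a lesion in Nitric Oxide Associated 1. They were set against wild-type Col-0, and the labels describe the 3 mutants as deficient in nitric oxide. Every seedling grew on MS medium with 1% sucrose in days of 16 h light and 8 h darkness and was harvested 5 h after dawn, and the labels place this stage after the transition to flowering. The comparisons ask how the loss of either gene pair or gene, and of both together, goes with the level of these transcripts.

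Plant defensins are small, secreted, cysteine-rich peptides, many of which inhibit the growth of fungi. In Arabidopsis leaves PDF1.2 is induced when jasmonate and ethylene act together, through the ethylene response factors ERF1 and ORA59, which EIN3 and its relatives help to switch on. A second jasmonate branch runs through MYC2 and its relatives MYC3 and MYC4, serves wounding and insect responses, and restrains the ERF branch.

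Some properties of these measurements bear on both genes. Arrays had similar medians, from 76.1 to 86.8 intensity units, and the median SD of log2 values over genes was 0.257 in nia1nia2, against 0.107 to 0.116 in the other genotypes, so nia1nia2 arrays were the least alike. The study's methods place the transition between noise and signal at a log2 intensity of 6, and the size of a difference is not exact where a mean lies below it. The test took in the 7034 genes that reached this level on average in 1 genotype or more, and a gene is called here where its limma p, after Benjamini-Hochberg adjustment over these genes, was under 0.05. PDF1.2 reached it only in noa1-2, so a difference of noa1-2 from the other genotypes was built into its passing. The x in the probe set name of PDF1.2b marks probes that also match other transcripts, and the defensins of this class are closely related in sequence. PDF1.2 lies beside PDF1.2c, and PDF1.2b lies beside PDF1.3. Neither neighbour was named by a probe set used here, so signal from such copies and from the named gene cannot be told apart. In whole seedlings, fewer cells of a type and less RNA per cell cannot be told apart either. NIA1, NIA2 and NOA1 were not analysed here, so the mutated genes gave no check of the labels. Of 19 marker genes of leaf, root, flower, seed and senescing leaf, 2 were measured, both of root. PYK10, a beta-glucosidase abundant in roots, averaged 12.80 ± 0.15 in nia1nia2noa1-2, 12.86 ± 0.27 in nia1nia2, 12.76 ± 0.09 in noa1-2 and 12.67 ± 0.03 in Col-0 (log2 intensity, SD, n = 3 each) and was called in no comparison with Col-0. EXPA7, an expansin of root hair cells, averaged 5.02 ± 0.10, 5.26 ± 0.42 and 4.90 ± 0.21 in the same 3 mutants, against 5.69 ± 0.02 in Col-0 (SD, n = 3 each), and was not tested. Whether the root share of the seedlings bears on the defensin values was not tested.

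PDF1.2 was highest in noa1-2 and lowest in the 2 genotypes without the nitrate reductases. Its log2 intensity was 4.71, 4.70 and 4.94 in the triple mutant. It was 4.60, 5.51 and 4.94 in nia1nia2. It was 7.15, 6.76 and 6.71 in noa1-2, against 5.63, 5.35 and 5.74 in Col-0. The 3 noa1-2 arrays stood above all 9 others, and the 3 triple mutant arrays stood below all 3 of Col-0, while nia1nia2 replicate 3 lay inside the Col-0 range. Of all genes tested, 19.6% had all noa1-2 arrays above all Col-0 arrays, and 26.2% had all triple mutant arrays below them. The share with noa1-2 above all 9 others was not computed. On the deposited linear scale the noa1-2 arrays lay between 104.7 and 142.0 intensity units, against 40.79 to 53.45 in Col-0. The triple mutant reached at most 30.70 of these units.

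PDF1.2b followed the same order of genotypes. Its log2 intensity was 5.21, 5.18 and 5.96 in the triple mutant. It was 5.39, 6.67 and 5.40 in nia1nia2. It was 8.31, 8.03 and 8.30 in noa1-2, against 6.89, 6.99 and 7.16 in Col-0. No array of a mutant overlapped the Col-0 arrays for this gene, and nia1nia2 replicate 3 was the mutant array below Col-0 that came closest to them. In linear units the noa1-2 arrays lay between 261.4 and 317.4, against 118.6 to 143.0 in Col-0, and the triple mutant lay between 36.25 and 62.25.

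**Figure D1:**
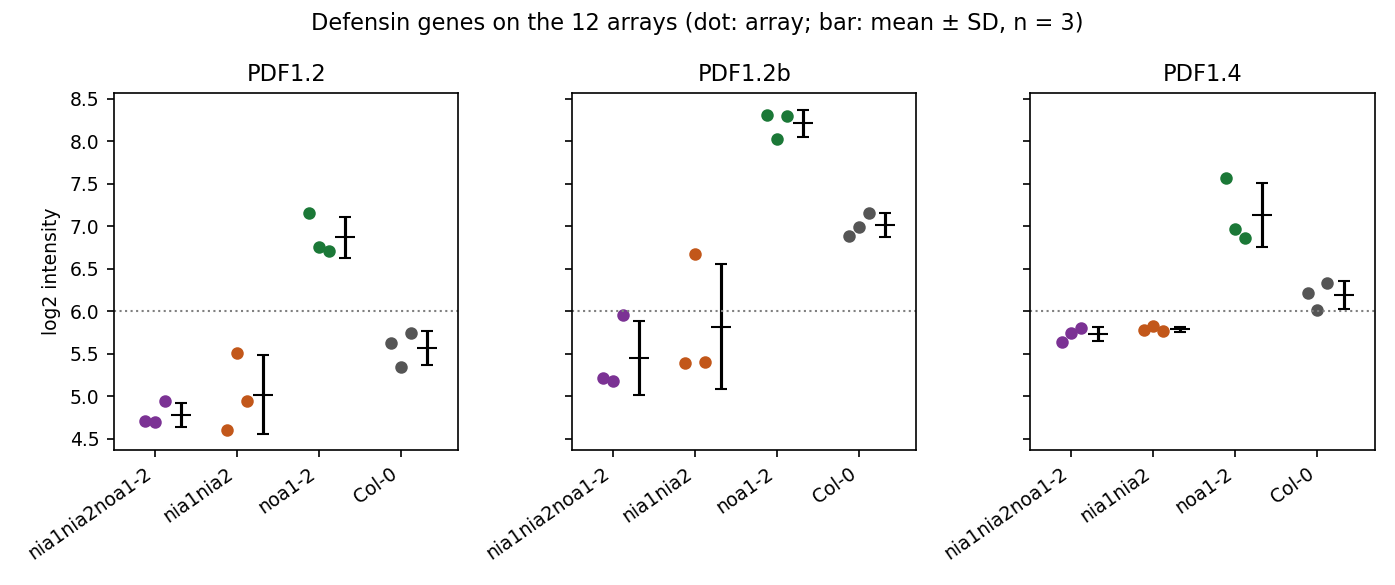
Log2 intensity of PDF1.2, PDF1.2b and a further defensin, PDF1.4, on each of 12 arrays (points) with the mean and SD of each genotype. The dotted line at 6 marks the transition between noise and signal. The 3 noa1-2 arrays stand highest for each gene. The 1 high nia1nia2 point in the panels of PDF1.2 and PDF1.2b is replicate 3.

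In noa1-2 both defensin transcripts were more than 2-fold higher than in Col-0. PDF1.2 averaged 6.87 ± 0.24 in noa1-2 and 5.57 ± 0.20 in Col-0 (log2 intensity, SD, n = 3 each), a difference of 1.3 (SE 0.20) or 2.46-fold, with a limma adjusted p of 0.002. PDF1.2b averaged 8.21 ± 0.16 in noa1-2 and 7.01 ± 0.14 in Col-0 (SD, n = 3 each), a difference of 1.2 (SE 0.29) or 2.3-fold, with a limma adjusted p of 0.023. Of the 7034 genes tested, 5.00% were called higher in this comparison and 4.08% lower, and 19.6% had all noa1-2 arrays above all Col-0 arrays. With median centring 519 genes were higher and 222 lower, against 352 and 287 without it. By size of the difference PDF1.2 stood 27th and PDF1.2b 36th from the top. PDF1.2b was no longer called without any 1 of the 6 arrays compared, at differences of 1.14 to 1.29 over all arrays left out. Those fits share 1 spread over the 4 genotypes, and the SD of PDF1.2b was 0.74 in nia1nia2 and 0.44 in the triple mutant. Fitted on the 6 arrays compared alone, its difference of 1.2 had an SE of 0.11 and a limma adjusted p of 7.90e-05.

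In nia1nia2 both were lower than in Col-0, PDF1.2b by the larger difference. PDF1.2b averaged 5.82 ± 0.74 in nia1nia2 and 7.01 ± 0.14 in Col-0 (log2 intensity, SD, n = 3 each), a difference of -1.19 (SE 0.29) or 2.29-fold, with a limma adjusted p of 0.0056, but the methods' t-test did not call it (p 0.0508 unadjusted and 0.142 adjusted). PDF1.2 averaged 5.02 ± 0.46 in nia1nia2 and 5.57 ± 0.20 in Col-0 (SD, n = 3 each), a difference of -0.56 (SE 0.20) or 1.47-fold, with a limma adjusted p of 0.0405. Both of these PDF1.2 means lie below 6, its arrays overlapped, and its call was lost under 9 of 11 other settings and without any 1 of 7 of the 12 arrays. This comparison called 26.6% of genes lower and 16.4% higher, and in 29.0% all nia1nia2 arrays lay below all Col-0 arrays, so a call here is common. Median centring turned that balance, to 1431 genes lower and 1532 higher, against 1870 and 1152 without it. By size PDF1.2b ranked 199th and PDF1.2 1173rd from the bottom. Replicate 3 of nia1nia2 held the highest value of its genotype for both genes. Without nia1nia2 replicate 2, the lowest PDF1.2 array, the PDF1.2 difference was -0.35 (limma adjusted p 0.165). Without replicate 3 the nia1nia2 mean was 4.77 for PDF1.2, a difference from Col-0 of -0.80, and 5.40 for PDF1.2b, a difference of -1.62.

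In the triple mutant both were lower than in Col-0. PDF1.2b averaged 5.45 ± 0.44 in nia1nia2noa1-2 and 7.01 ± 0.14 in Col-0 (log2 intensity, SD, n = 3 each), a difference of -1.56 (SE 0.29) or 2.96-fold, with a limma adjusted p of 0.00237. PDF1.2 averaged 4.78 ± 0.14 in nia1nia2noa1-2 and 5.57 ± 0.20 in Col-0 (SD, n = 3 each), a difference of -0.79 (SE 0.20) or 1.73-fold, with a limma adjusted p of 0.0144. Both PDF1.2 means again lie below 6, and its call was lost without replicate 1 or 3 of Col-0 or replicate 1 or 2 of the triple mutant, at differences between -0.90 and -0.71 over all arrays left out. Here 11.3% of genes were called lower and 10.6% higher, and 26.2% had all triple mutant arrays below all Col-0 arrays. PDF1.2b ranked 37th and PDF1.2 266th from the bottom.

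The mutants were also set against each other, to see what each lesion did where the other was present. With the nitrate reductase lesions added to noa1-2, both transcripts were much lower. PDF1.2b averaged 5.45 in the triple mutant and 8.21 in noa1-2, a difference of -2.76 (SE 0.29) or 6.79-fold, with a limma adjusted p of 5.15e-05. PDF1.2 averaged 4.78 in the triple mutant and 6.87 in noa1-2, a difference of -2.09 (SE 0.20) or 4.26-fold, with a limma adjusted p of 2.69e-05. These were the 2nd and the 6th lowest differences of 7034 genes, in a comparison that called 9.17% of genes lower and held 24.1% of genes whose triple mutant arrays all lay below those of noa1-2.

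With noa1-2 added to nia1nia2, neither transcript was called. PDF1.2 averaged 4.78 in the triple mutant and 5.02 in nia1nia2, a difference of -0.23 with a 95% interval from -0.67 to 0.20 and a limma adjusted p of 0.464. PDF1.2b averaged 5.45 in the triple mutant and 5.82 in nia1nia2, a difference of -0.37 with a 95% interval from -1.01 to 0.27 and a limma adjusted p of 0.42. Of all genes, 15.2% were called in this comparison in either direction. The arrays overlapped for both genes, and the PDF1.2 means both lie under 6, where a small difference is hard to see. Without nia1nia2 replicate 3 the differences were 0.01 for PDF1.2 and 0.06 for PDF1.2b.

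Set directly against noa1-2, nia1nia2 was lower in both transcripts. PDF1.2b averaged 5.82 in nia1nia2 and 8.21 in noa1-2, a difference of -2.39 (SE 0.29) or 5.25-fold, with a limma adjusted p of 3.58e-05. PDF1.2 averaged 5.02 in nia1nia2 and 6.87 in noa1-2, a difference of -1.86 (SE 0.20) or 3.62-fold, with a limma adjusted p of 1.54e-05. The comparison called 25.8% of genes lower, and in 28.1% all nia1nia2 arrays lay below all noa1-2 arrays. PDF1.2b ranked 8th and PDF1.2 43rd from the bottom.

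**Figure D2:**
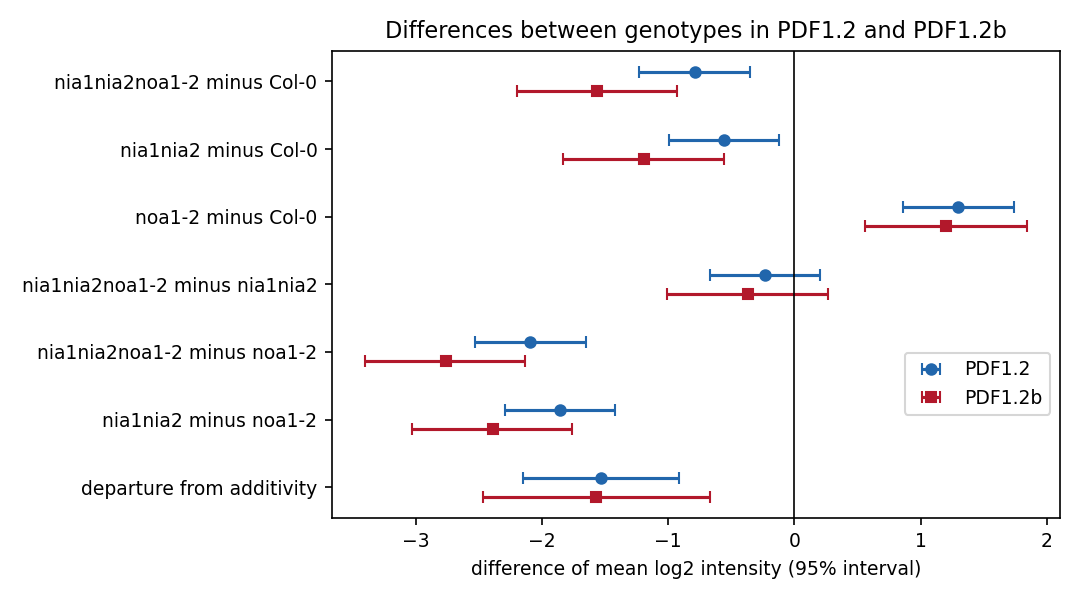
Difference of mean log2 intensity with its 95% interval for PDF1.2 and PDF1.2b in 6 comparisons of genotypes and in the departure from additivity. The intervals of both genes lie above 0 for noa1-2 minus Col-0, cross 0 for nia1nia2noa1-2 minus nia1nia2, and lie below 0 elsewhere.

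The order of levels was therefore noa1-2, Col-0, nia1nia2 and the triple mutant for both genes, from high to low, and nia1nia2 and the triple mutant did not differ beyond their spread. The departure from additivity tests whether noa1-2 had the same effect in the nia1nia2 background as in Col-0. It is the effect of noa1-2 in nia1nia2 minus its effect in Col-0. For PDF1.2 the effect was -0.23 in nia1nia2 and 1.3 in Col-0, so the departure was -1.53 with a 95% interval from -2.15 to -0.91 and a limma adjusted p of 0.0131. For PDF1.2b the effect was -0.37 in nia1nia2 and 1.2 in Col-0, so the departure was -1.57 with a 95% interval from -2.47 to -0.67, and its limma adjusted p of 0.0544 missed the threshold of 0.05. This PDF1.2b call turned with the setting: it passed with array weights (-1.58, adjusted p 0.00862), median centring (-1.73, 0.0355), quantile normalization (-1.65, 0.046) and the replicate block (-1.74, 0.00952), and without any 1 of 4 arrays (nia1nia2 replicate 2, 3 or 4, or triple mutant replicate 3). Only nia1nia2 has a replicate 4, so the replicate block in effect leaves that array out. A difference between the 2 genes in their departure was not tested. Among all genes 1.01% were called for a negative departure and 2.46% for a positive one, and the members were the 34th (PDF1.2) and 33rd (PDF1.2b) lowest. Both PDF1.2 means behind the effect in nia1nia2 lie under 6, and what this does to the departure was not tested.

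Being lower in the triple mutant and in nia1nia2 but higher in noa1-2, each called against Col-0, was a combination shared by 6 of 7034 genes, or 0.0853%. The 3 comparisons share the Col-0 arrays, and this combination was chosen after the values were seen, so it is a description. PDF1.2 belongs to it through a nia1nia2 call that was kept under only 2 of 11 other settings. Those 2 change how probe sets are used, and PDF1.2 has 1 probe set, so its difference could not change there. It was also tested only because its noa1-2 mean reached 6, and a high noa1-2 level is part of the combination. Besides PDF1.2 and PDF1.2b it held AT1G22570, AT4G29750, AT5G57655 and LSMT-L. These 4 genes had noa1-2 differences of 0.47, 0.46, 0.39 and 0.45, which were smaller than those of the 2 defensins. Their departures from additivity were -0.07 for AT1G22570, 0.10 for AT4G29750, -0.70 for AT5G57655 and 0.30 for LSMT-L.

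The 2 genes moved together over the 12 arrays. Pearson's r between their log2 values was 0.963 and Spearman's rho 0.949 (n = 12 arrays). The arrays fall into genotypes, and these points share that structure. After the genotype means were subtracted, r was 0.797 and rho 0.678. The high nia1nia2 replicate 3 deviated from its genotype mean by 0.49 for PDF1.2 and 0.85 for PDF1.2b, and triple mutant replicate 3 by 0.16 for PDF1.2 and 0.51 for PDF1.2b. These 2 arrays were thus high for both genes. Col-0 replicate 1 deviated by 0.06 for PDF1.2 and -0.12 for PDF1.2b, and noa1-2 replicate 3 by -0.16 and 0.09. The probes of PDF1.2b also match other transcripts. A shared course of the 2 genes and signal shared between their probe sets therefore cannot be told apart. The SD of PDF1.2b was 0.44 in the triple mutant and 0.74 in nia1nia2, larger than those of 98.4% and 97.2% of genes in the same genotypes. In noa1-2 it was 0.16 and in Col-0 0.14.

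**Figure D3:**
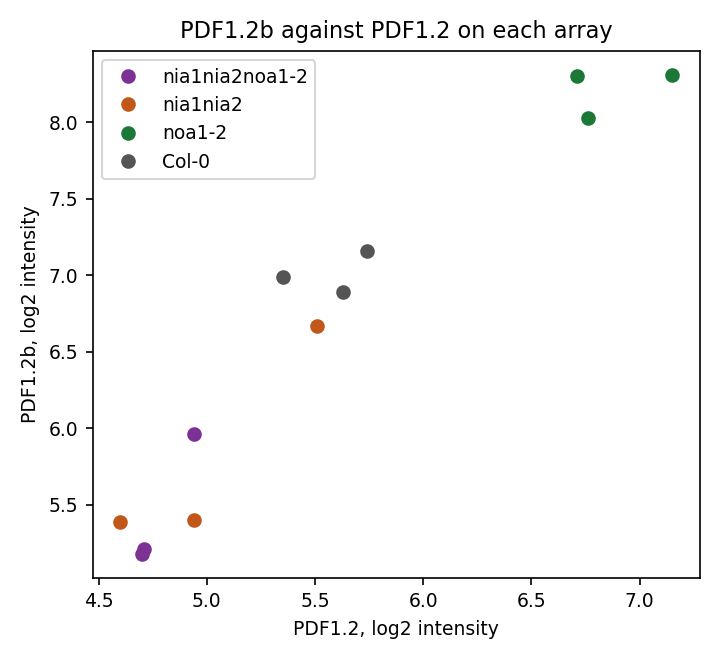
Log2 intensity of PDF1.2b against that of PDF1.2, with 1 point for each of 12 arrays coloured by genotype. The noa1-2 arrays lie at the upper right, the Col-0 arrays between, and the triple mutant and nia1nia2 arrays at the lower left, with nia1nia2 replicate 3 above the rest of its genotype.

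Other plant defensins did not all share this course. The list held 13 defensin genes, of which 10 were measured and 6, with PDF1.2 and PDF1.2b among them, were tested. Counting both of those, 0 were called higher and 2 lower in the triple mutant, 1 higher and 3 lower in nia1nia2, and 3 higher and 0 lower in noa1-2, each against Col-0. Of all genes tested, 11.3% were called lower in the triple mutant, 26.6% lower and 16.4% higher in nia1nia2, and 5.00% higher in noa1-2, so the nia1nia2 calls stand against a high background. The list's median differences were -0.31 in the triple mutant, -0.48 in nia1nia2 and 0.68 in noa1-2, beside -0.03, -0.10 and -0.03 over all genes tested. PDF1.2 and PDF1.2b enter these medians, and the 2 lower calls in the triple mutant were those 2 genes themselves. The medians are thus not a measure of the other defensins.

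The closest to the pair was PDF1.4, another gene of the same defensin class. Its log2 intensity was 5.64, 5.74 and 5.80 in the triple mutant, 5.78, 5.83 and 5.77 in nia1nia2, and 7.57, 6.97 and 6.86 in noa1-2, against 6.21, 6.02 and 6.33 in Col-0. All noa1-2 arrays lay above the other 9, a trait whose share over all genes was not computed. PDF1.4 was 0.95 higher in noa1-2 than in Col-0 (SE 0.16, limma adjusted p 0.00331), a call the methods' t-test with adjustment did not make. Its differences of -0.46 in the triple mutant and -0.39 in nia1nia2 were not called (limma adjusted p 0.0575 and 0.0646). Its departure from additivity was -1.01 (limma adjusted p 0.0286). Without nia1nia2 replicate 3, whose PDF1.4 value was close to the other 2 of that genotype, its difference in nia1nia2 was -0.41. After the genotype means were subtracted, its r was 0.597 with PDF1.2 and 0.23 with PDF1.2b (n = 12 arrays).

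The tested genes of the PDF2 group differed from the pair in their calls against Col-0. PDF2.1 averaged 7.86 ± 0.47 in nia1nia2 and 7.08 ± 0.10 in Col-0 (SD, n = 3 each), 0.78 higher (limma adjusted p 0.0165), and the call was lost with the replicate block (0.62, adjusted p 0.0582), array weights (0.70, adjusted p 0.0595) and the methods' t-test with adjustment, and without Col-0 replicate 1 or nia1nia2 replicate 4. The replicate block in effect leaves out nia1nia2 replicate 4 as well, so it and that removal are not separate losses. PDF2.3 averaged 9.79 ± 0.24 in nia1nia2 and 10.58 ± 0.27 in Col-0 (SD, n = 3 each), a difference of -0.79 (limma adjusted p 9.67e-04). Neither was called in the triple mutant or in noa1-2. PDF2.2 was called in none of these 3 comparisons, with differences of -0.02 in the triple mutant, -0.21 in nia1nia2 and 0.41 in noa1-2. Its noa1-2 arrays, at 12.40, 12.29 and 12.32, still lay above all others, of which the highest was 12.11 in Col-0. Against noa1-2, PDF2.2 was lower in the triple mutant (-0.42, limma adjusted p 0.0413) and in nia1nia2 (-0.62, 0.00223). In nia1nia2 against noa1-2, PDF2.3 was lower (-0.87, limma adjusted p 3.92e-04) and PDF2.1 higher (0.97, 0.00466). Those comparisons called 9.17% and 25.8% of all genes lower. PDF1.1, PDF2.4, PDF2.5 and PDF2.6 had means under 6 in every genotype and were not tested. Among these, PDF1.1 averaged 4.06 ± 0.17 in the triple mutant, 5.03 ± 0.61 in nia1nia2 and 3.86 ± 0.05 in noa1-2, against 3.87 ± 0.08 in Col-0 (SD, n = 3 each). PDF1.2c, PDF1.3 and PDF1.5 were not analysed here.

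**Figure D4:**
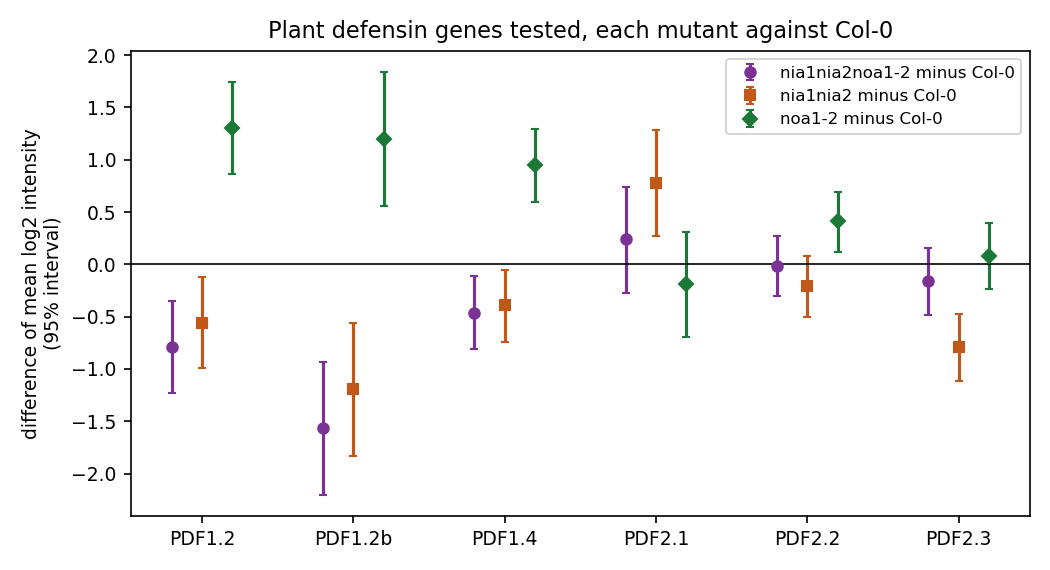
Difference of mean log2 intensity from Col-0 with its 95% interval for the 6 plant defensin genes tested, in the triple mutant, nia1nia2 and noa1-2. PDF1.2, PDF1.2b and PDF1.4 lie above 0 in noa1-2 and below 0 in the 2 genotypes with nia1nia2. The PDF2.2 interval in noa1-2, from 0.12 to 0.69, also lies above 0, though PDF2.2 was not called there. PDF2.1 and PDF2.3 stand apart from 0 in nia1nia2.

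Few of the pathway's other genes could be read. The 8 other lists, on jasmonate, ethylene, salicylate and group VII ERF genes, named 128 genes, of which 15 were measured and 8 tested. ERF1, ORA59, COI1, EIN2, MYC2, VSP2, PR1 and NPR1, the JAZ repressors and the group VII ERFs were not analysed here. The salicylate list had GRX480 alone, a glutaredoxin with means between 5.01 and 5.51, which was not tested. So ERF1 and ORA59, the factors named above for the induction of PDF1.2, are not among the genes read.

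Of the genes on the ERF branch list, OSM34, an osmotin-like protein, was the only one tested of 3 measured. It averaged 9.71 ± 0.14 in the triple mutant, 9.88 ± 0.10 in nia1nia2 and 8.91 ± 0.20 in noa1-2, against 10.23 ± 0.09 in Col-0 (log2 intensity, SD, n = 3 each). It was lower in all 3, by differences of -0.53, -0.35 and -1.32 (limma adjusted p 0.00975, 0.0381 and 1.00e-04). The nia1nia2 call was lost under 4 other settings, at -0.25 with median centring, and without any 1 of 7 arrays. In noa1-2 its direction was thus opposite to that of PDF1.2 and PDF1.2b. The thionin gene THI2.1 and AT5G43410, which the same list holds, had means between 4.03 and 4.33 and were not tested.

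The MYC branch list had 2 of 13 genes tested, and both were called lower in nia1nia2, where 26.6% of all genes were. MYC3 averaged 7.07 ± 0.08 in nia1nia2 and 7.60 ± 0.16 in Col-0 (SD, n = 3 each), a difference of -0.53 (limma adjusted p 0.00499). MYC4 averaged 5.97 ± 0.16 in nia1nia2 and 6.57 ± 0.25 in Col-0 (SD, n = 3 each), a difference of -0.61 (limma adjusted p 0.00373). These transcription factors work beside MYC2. In the triple mutant MYC3 differed by -0.21 and MYC4 by -0.15, and in noa1-2 by -0.30 and -0.43, none of them called.

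Hormone levels were not measured, and a transcript on the lists of synthesis or turnover is not a measure of them. AT5G05600, which the list of jasmonate synthesis and turnover holds, was higher in every mutant. It averaged 7.48 ± 0.46 in the triple mutant, 8.46 ± 0.53 in nia1nia2 and 7.71 ± 0.26 in noa1-2, against 6.43 ± 0.14 in Col-0 (log2 intensity, SD, n = 3 each), with differences of 1.05, 2.03 and 1.28 (limma adjusted p 0.0115, 5.99e-05 and 0.00836). Its triple mutant call was lost without triple mutant replicate 1 or 2 and with the methods' t-test with adjustment. OPCL1, a CoA ligase of jasmonate synthesis, was called in none of the 3. The other 4 measured genes of that list had means under 6 in every genotype. AT1G12010, from the list of ethylene synthesis, was lower in every mutant, with differences of -0.97 in the triple mutant, -0.59 in nia1nia2 and -0.66 in noa1-2 (limma adjusted p 0.00306, 0.023 and 0.0477). Its nia1nia2 call was lost under 3 other settings and without any 1 of 3 arrays, and its noa1-2 call under 5 other settings and without any 1 of 8 arrays. EIN3, the transcription factor of the ethylene pathway, was lower in noa1-2 than in Col-0, with a difference of -0.42 (limma adjusted p 0.0406), but the call was lost with median centring (-0.36, adjusted p 0.0823), with the methods' t-test with adjustment and without any 1 of 9 of the 12 arrays. Its differences of -0.34 in the triple mutant and -0.05 in nia1nia2 were not called. RTE1, which acts with an ethylene receptor, was called in none.

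Over the 12 arrays, PDF1.4 had the highest Pearson correlation with PDF1.2 of all other genes tested, PDF1.2b aside (r 0.965, rho 0.939). It was followed by AT5G07340 (r 0.958), AT3G47800 (r 0.947), AT1G28100 (r 0.935) and AT1G72190 (r 0.93). For PDF1.2b the leading genes were AT1G28100 (r 0.963), AT2G24060 (r 0.958), AT5G09300 (r 0.952), AT3G47800 (r 0.945) and AT4G03150 (r 0.94). AT3G47800 and AT1G28100 stood on both lists. AT3G47800 averaged 7.63 ± 0.18 in the triple mutant, 8.04 ± 0.14 in nia1nia2 and 8.74 ± 0.06 in noa1-2, against 8.19 ± 0.04 in Col-0 (SD, n = 3 each), in the same order of genotypes as the defensins. AT1G28100 averaged 7.09 ± 0.15, 7.04 ± 0.32 and 7.88 ± 0.05 in the same 3 mutants, against 7.44 ± 0.08 in Col-0 (SD, n = 3 each). These values describe a likeness of pattern over arrays that share genotypes.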

How the data were processed

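Gene expression in whole seedlings of 4 genotypes was measured on 12 ATH1 arrays, 3 per genotype. Per the study's methods, background correction and normalization were done by the authors with RMA (robust multiarray averaging) and a custom chip definition file, while the labels list limma among the tools. The deposited intensity values are linear and carry Affymetrix probe set names, so it is unclear which definition file produced them. The planned design assumed log2 values, so log2 was taken of the deposited intensity with no pseudocount, and every log2 has 2 decimals. Precision is limited by having 3 arrays a genotype.

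The table held 22810 probe sets. Of them, 64 were controls, 13513 had 1 gene in the platform annotation, 503 several and 8730 none. Only those with 1 gene were named. Of these, 13436 matched the RefSeq gene table (assembly TAIR10.1), which gave symbols and neighbouring genes only. The brightest probe set stood for each of 147 genes with several. Sequences of the members were not used here.

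All 12 arrays entered 1 limma fit (lmFit and eBayes, two-sided, 8 residual degrees of freedom) over the 7034 genes whose mean reached 6 in some genotype. Adjustment was by Benjamini-Hochberg over those genes, and a gene was called at an adjusted p under 0.05. Intervals are 95% and not adjusted. Labels call the replicates biological and do not say whether they shared a growth batch. On data simulated for nia1nia2noa1-2 minus Col-0 over 7034 genes, the fit found 51% of genes changed 1.5-fold, 92.2% changed 2-fold and 99.7% changed 4-fold, and 3.69% of calls were false. The simulated noise had 1 spread per gene in all 4 genotypes, whereas the real nia1nia2 arrays had a median SD of 0.257, against 0.107 to 0.116 elsewhere. These rates therefore do not show how the fit performs under unequal spreads or in the comparisons of nia1nia2. Replicate arrays of a genotype had the same value in 1.32% to 3.98% of probe sets, so none was deposited in duplicate.

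The members, gene lists and tests were chosen with earlier results of these data known. Named genes were the 2 members, every measured plant defensin, a set of pathway regulators wherever measured, up to 4 called genes per other list and comparison with Col-0, and the 5 genes most correlated with each member. Alternatives were another scaling, array weights, a variance trend, other filters, all probe sets, the methods' t-test, 6 arrays per fit, the replicate number as a block, and leaving out each array. The software was limma 3.58.1 in R 4.3.3, and numpy 2.4.6, matplotlib 3.10.9 and pandas 2.3.3 in Python 3.11.15.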

Additional observations from a re-analysis of the deposited data

Results flagged for a closer look

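The effect of noa1-2 in the nia1nia2 background differed from its effect in Col-0, by the limma test of the difference itself, for 6 of the genes named. The difference of the 2 effects was -1.53 for PDF1.2 (-0.23 in nia1nia2 and 1.3 in Col-0) and -1.01 for PDF1.4. It was 1.15 for OSM34, 0.89 for MYC4, -2.26 for AT5G05600 and -0.96 for AT3G47800. No explanation for these differences was tested. Among all genes tested, 1.01% were called in this test for a negative difference and 2.46% for a positive one. OSM34, MYC4 and AT5G05600 were named because they were called in these data, and AT3G47800 because it correlated with PDF1.2. PDF1.2 itself was tested only because its noa1-2 mean reached 6. The count of 6 is therefore a description and cannot be set against these shares.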

How the results depend on the processing

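Of 324 values of PDF1.2 and PDF1.2b over all settings, 286 stayed on their side of the threshold and 2 reversed. Each gene has 1 probe set, so the settings on the use of probe sets could not change their differences, and they add to this count. The PDF1.2 difference in nia1nia2, -0.56 (limma adjusted p 0.0405), lost its call with no filter on low values, a variance trend, the methods' t-test or limma on the 6 arrays compared (-0.56 in each, p 0.0501 to 0.252), array weights (-0.60), median centring (-0.46) and quantile normalization (-0.53). That of PDF1.2b, -1.19, lost it under the methods' t-test, adjusted or not (-1.19). The PDF1.2b departure, -1.57, gained a call with array weights (-1.58), median centring (-1.73) and quantile normalization (-1.65). Over all genes tested, same-numbered arrays showed no steady likeness in their deviations from the genotype means (15 same-numbered pairs, 4 with r above 0.1, from -0.112 to 0.282). For PDF1.2b, replicate 3 lay above its genotype mean in the triple mutant (0.51), nia1nia2 (0.85), noa1-2 (0.09) and Col-0 (0.15). The labels do not say whether same-numbered arrays shared a batch, so a pairing for these genes cannot be judged. With the replicate number as a block, the PDF1.2 difference in nia1nia2 was -0.47 (not called) and the PDF1.2b departure -1.74 (called), and no other call of the 2 genes changed. Only nia1nia2 has a replicate 4, so this block in effect leaves that array out. The nia1nia2 estimate then rests on its replicates 2 and 3.

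With each array left out in turn, PDF1.2 ranged from -0.90 to -0.71 in the triple mutant, -0.80 to -0.35 in nia1nia2 and 1.16 to 1.38 in noa1-2, each minus Col-0. It ranged from -0.44 to 0.01 for the triple mutant minus nia1nia2, -2.17 to -1.95 for the triple mutant minus noa1-2, -2.10 to -1.65 for nia1nia2 minus noa1-2, and -1.74 to -1.29 for the departure. PDF1.2b ranged from -1.82 to -1.43 in the triple mutant, -1.62 to -0.98 in nia1nia2 and 1.14 to 1.29 in noa1-2, each minus Col-0. It ranged from -0.63 to 0.06, -3.02 to -2.63, -2.82 to -2.18 and -1.82 to -1.15 for the same 4 further contrasts, and the departure gained its call without nia1nia2 replicate 2, 3 or 4 or triple mutant replicate 3. Without nia1nia2 replicate 3 the triple mutant minus nia1nia2 reversed to 0.01 (PDF1.2) and 0.06 (PDF1.2b), uncalled throughout. The cause was not tested.

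Requiring a mean of 6 in either genotype compared removed PDF1.2 from both comparisons of nia1nia2 and the triple mutant with Col-0 and, with PDF1.2b, from that of the triple mutant with nia1nia2. That filter, the t-test and the 6-array fit cannot give the departure. Of 576 called values of the other named genes, 468 stayed called, 108 did not and 0 reversed. Genes called higher and lower were 748 and 794 in the triple mutant, 1152 and 1870 in nia1nia2, and 352 and 287 in noa1-2. In the triple mutant and noa1-2 they were 1310 and 1449, and 1076 and 1109, by the unadjusted t-test, 1227 and 1312, and 834 and 809, on 6 arrays (1241 lower in nia1nia2), 1535 and 1541, and 1161 and 1262, with array weights, and 1135 and 1193, and 651 and 548, with the replicate block. The adjusted t-test gave 370 and 527 in nia1nia2 and 215 and 146 in noa1-2. All probe sets, which are more features, gave 1565 and 1558, 2276 and 3617, and 688 and 587 in the triple mutant, nia1nia2 and noa1-2. Median centring gave 1532 and 1431 in nia1nia2 and 519 and 222 in noa1-2. Without 1 array the triple mutant had 434 to 1148 higher and 406 to 1194 lower, and noa1-2 164 to 670 and 105 to 541.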
